A study of Verbena bonariensis with 6 samples.

Results

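Group VII ethylene response factors (ERFs) are the transcription factors through which plants answer low oxygen, and 12 gene clusters of Verbena bonariensis roots carried the name of one of them. They were taken from the AP2-EREBP family, the family of ethylene response factors and their relatives, by the name of their best hit in Swiss-Prot: RAP2-2, RAP2-3, RAP2-12, ERF071 or ERF073. Of 425 AP2-EREBP clusters among 8147 clusters of transcription factors and other regulators, 5 were named RAP2-12, 5 RAP2-3 and 2 ERF073, while 0 were named RAP2-2 or ERF071. All roots came from 2-month-old plants of the ornamental cultivar Finesse grown in soil with a single seedling per pot. The control group (3 libraries) received no cadmium solution, and the cadmium group (3 libraries) stood for 20 days in soil with cadmium at 100 mg/kg. The labels call the 3 libraries of a group biological replicates. The number of plants behind each library was not given in the sources used here.

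In Arabidopsis, RAP2-12, RAP2-2 and RAP2-3 are made all the time, and their protein is controlled more than their RNA. Plant cysteine oxidases use oxygen to oxidise a cysteine at the protein's start, which marks it for destruction by the N-degron pathway. When oxygen or nitric oxide falls, the proteins persist, enter the nucleus and switch on fermentation and other low-oxygen genes such as LBD41. ERF073 and ERF071, known as HRE1 and HRE2, carry the same start, and their RNA itself rises under low oxygen. RNA was measured here, so protein levels and protein stability were not.

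The control libraries held 1207479 to 1340255 counts on regulators, and the cadmium libraries 1092183 to 1228042. Regulators took 6.45% to 6.52% of the whole control libraries and 5.23% to 5.53% of the cadmium libraries, so the scale to which counts are set matters for every change below. The main scale is CPM (regulator counts in counts-per-million, after TMM scaling), which compares a cluster with the typical regulator. The other scale is counts-per-million of all fragments of the whole library, which moved the median log2 fold change of all tested clusters by −0.35. Of 9 root marker names 8 were matched and above 0, with a summed level of 94.2 to 104 FPKM (fragments per kilobase, scaled to library size) in control and 86.4 to 129 FPKM in cadmium libraries. Clusters named after the green-tissue regulators GLK1 and GLK2 summed to 86.9 to 96.1 FPKM in control and 50.9 to 54.7 FPKM in cadmium libraries, and their part in the results was not tested. Of 5 flower and 3 stomata marker names 1 each was matched, at 0 in all control libraries and at most 1.96 FPKM in a cadmium library. In whole roots, fewer cells of a type and less RNA per cell cannot be told apart.

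The 12 clusters were unequal in what the annotation holds. The AP2 DNA-binding domain was annotated in 8 of them, and 11 were assigned to the KEGG group EREBP. All 5 RAP2-12 clusters had the same best hit in the NR protein database, a RAP2-12-like protein of sesame (Sesamum indicum), and 3 RAP2-3 clusters shared the sesame RAP2-3 protein. The RAP2-3 Cluster-9033.66342, a fragment of 222 bases, had a hypothetical protein of peach (Prunus persica) as its best NR hit, so NR does not name it. Both ERF073 clusters had a sesame protein named ERF071 as their best NR hit, so the 2 databases give them the names of different members of the HRE pair. Cluster-9033.21291 stood apart: its hit to RAP2-3 was the weakest (E value 2.7e-07), its best NR hit was an uncharacterized sesame protein shared with clusters named PTI6, and it was the member without the EREBP assignment. Counts and medians over the members are therefore given with and without it. Outside the rule, Cluster-2284.0 had a RAP2-2-like protein as its best NR hit but the Swiss-Prot name DREB2G, and it held 0 to 10 counts per library.

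Both ERF073 clusters, 2 of the 5 RAP2-12 clusters and 1 of the 5 RAP2-3 clusters, the weakly named Cluster-9033.21291, were higher in cadmium roots relative to the typical regulator. Of the 11 members that passed the filter on low counts, 5 were higher and 0 lower in cadmium (adjusted p below 0.05 in edgeR's quasi-likelihood test, Benjamini-Hochberg method), beside 15.8% higher and 14.6% lower among all 4844 tested clusters. The median log2 fold change of the 11 was 0.45, against −0.08 over all tested clusters. Without Cluster-9033.21291 the count was 4 of 10 and the median 0.42. At an unadjusted p below 0.05 edgeR gave 6 members higher and 0 lower, beside 20.9% of all tested clusters in each direction. DESeq2 also gave 6 and 0 after adjustment, beside 21.8% higher and 21.5% lower among the 4837 clusters to which it gave an adjusted p. The other 257 tested AP2-EREBP clusters had 52 higher and 76 lower and a median of −0.46. On the whole-library scale 4 members were higher and 2 lower, beside 10.9% higher and 22.9% lower among all tested clusters, with a median of 0.10 against −0.42. Without Cluster-9033.21291, 3 of 10 were higher and 2 lower there, and the median was 0.07. Leaving out cadmium replicate 1 or control replicate 2 lowered the count of higher members from 5 to 3, beside 596 of 5330 and 672 of 5286 tested clusters.

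**Figure D1:**
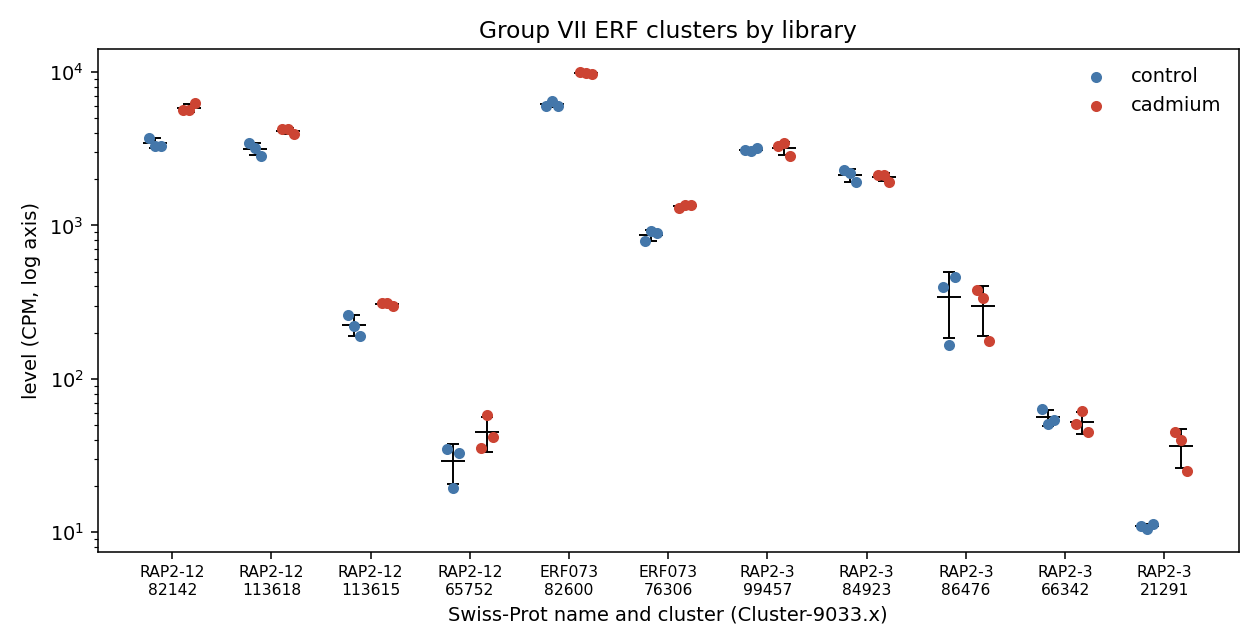
Level of the 11 tested group VII ERF clusters in each library, in CPM on a log axis, with the mean and SD of 3 libraries per group. Control and cadmium libraries do not overlap for the RAP2-12 and ERF073 clusters and for Cluster-9033.21291, and overlap for the other 4 RAP2-3 clusters.

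RAP2-12 is the member best studied as an activator of the low-oxygen response, and in Arabidopsis it is held at the plasma membrane until oxygen falls. Its most abundant cluster, Cluster-9033.82142, stood at 3726, 3284 and 3295 CPM in control replicates 1 to 3 and at 5608, 5613 and 6275 CPM in cadmium replicates 1 to 3. Every cadmium library lay above every control library. The log2 fold change was 0.76 ± 0.08 (SE, n = 3 per group, edgeR adjusted p = 0.00105), and 0.42 ± 0.09 on the whole-library scale (edgeR adjusted p = 0.0131). Its counts, 4056 to 5093 in control and 5997 to 7254 in cadmium libraries, were whole numbers in all 6 libraries, whereas the other members with counts held decimals. The cluster is 605 bases long, and 603 of them were annotated as coding.

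The second RAP2-12 cluster gave a smaller difference that depended on the scale. Cluster-9033.113618, with the longest coding stretch of the members (1131 of 1368 bases), stood at 3427, 3197 and 2853 CPM in control and at 4253, 4243 and 3912 CPM in cadmium libraries. The groups did not overlap, and the log2 fold change was 0.39 ± 0.08 (SE, edgeR adjusted p = 0.0151). On the whole-library scale the groups overlapped and the log2 fold change was 0.04 ± 0.08 (edgeR adjusted p = 0.736). Without cadmium replicate 1 (edgeR adjusted p = 0.0558) or control replicate 2 (edgeR adjusted p = 0.052) the cluster did not pass.

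The remaining RAP2-12 clusters were minor. Cluster-9033.113615 stood at 262, 222 and 191 CPM in control and at 310.4, 310.7 and 298 CPM in cadmium libraries. Its groups did not overlap, but its log2 fold change of 0.45 ± 0.14 (SE) did not pass the test (edgeR adjusted p = 0.0607). Cluster-9033.65752 lay between 19.4 and 35.1 CPM in control and between 35.6 and 58.0 CPM in cadmium libraries, and did not pass either (log2 fold change 0.62 ± 0.39, edgeR adjusted p = 0.284). Cluster-9033.65755 had a count of 0 in all 6 libraries, which allows up to 3 counts or 2.19 to 2.81 CPM per library, and it was not tested. Cluster-9033.65755 and Cluster-9033.113615 were annotated with coding stretches of the same length (882 bases) in 2 frames and with the same scores, so the counting could have placed the reads of both in one of them.

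Between the RAP2-12 clusters the balance also differed between groups, a measure that no scaling can move. Cluster-9033.82142 took 50.0%, 48.8% and 51.7% of the RAP2-12 counts in control libraries and 54.9%, 54.9% and 59.6% in cadmium libraries. Cluster-9033.113618 took 46.1% ± 1.40 (SD, n = 3) in control and 40.1% ± 2.55 in cadmium libraries. Counts summed over all RAP2-12 clusters passed in a fit of 1502 such Swiss-Prot sums, with a log2 fold change of 0.60 ± 0.07 (SE, edgeR adjusted p = 0.000177). In that fit 28.6% of all sums were higher in cadmium. Set to the whole library, the RAP2-12 sum had a log2 ratio of group means of 0.24, which was not tested.

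ERF073, or HRE1, extends the low-oxygen response in Arabidopsis and is absent or low in air there. In these roots the clusters of this name were abundant in both groups. Their best NR hit was named ERF071, so which of the HRE pair they match was not settled. Cluster-9033.82600 stood at 5969, 6453 and 6005 CPM in control and at 9939, 9767 and 9677 CPM in cadmium libraries, the highest CPM of the members. The groups were far apart relative to their spread, and the log2 fold change was 0.67 ± 0.05 (SE, edgeR adjusted p = 0.000323), or 0.33 ± 0.04 on the whole-library scale (edgeR adjusted p = 0.00226).

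The smaller ERF073 cluster moved in step with the larger one. Cluster-9033.76306 stood at 787, 916 and 886 CPM in control and at 1299, 1349 and 1356 CPM in cadmium libraries. Its log2 fold change was 0.63 ± 0.08 (SE, edgeR adjusted p = 0.00207), and 0.28 ± 0.08 on the whole-library scale (edgeR adjusted p = 0.0338). Cluster-9033.82600 took 87.7% ± 0.61 (SD, n = 3) of the ERF073 counts in control and 88.0% ± 0.38 in cadmium libraries, a balance that overlapped between groups. Summed over both clusters, ERF073 counts had a log2 fold change of 0.68 ± 0.06 with TMM scaling (SE, edgeR adjusted p = 1.42e-05). Set to the whole library, the log2 ratio of group means was 0.32, which was not tested.

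**Figure D2:**
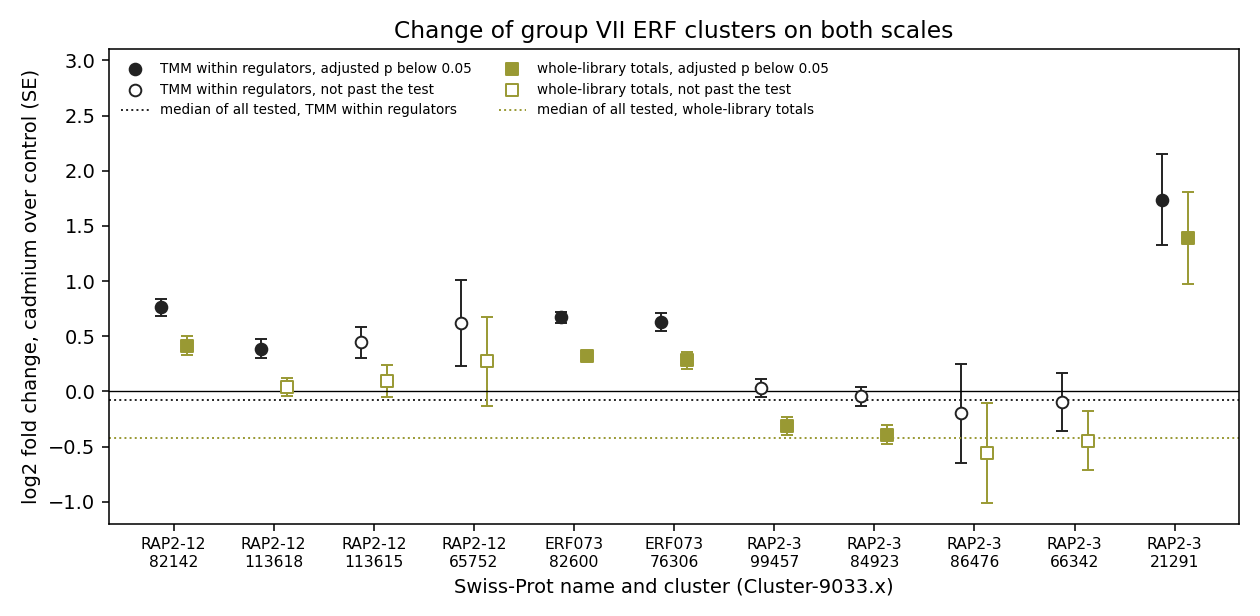
Log2 fold change of cadmium over control with its SE for each tested cluster, with TMM scaling (circles) and whole-library totals (squares), filled where the adjusted p is below 0.05, and dotted lines at the median of all 4844 tested clusters (−0.08 and −0.42). The RAP2-12 and ERF073 clusters lie above both medians, and Cluster-9033.99457 and Cluster-9033.84923 are near 0 on the first scale and past the test downward on the second.

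RAP2-3, also called EBP, is another constantly made member that in Arabidopsis acts beside RAP2-12. Its main cluster, Cluster-9033.99457, stood at 3080.5, 3060 and 3207 CPM in control and at 3286, 3435 and 2842 CPM in cadmium libraries. The groups overlapped, with a log2 fold change of 0.03 ± 0.08 (SE, edgeR adjusted p = 0.804). Counts set to the whole library did not overlap, at 197 to 213 in control and 148 to 180.03 in cadmium libraries, and there the cluster was lower (log2 fold change −0.32 ± 0.08, edgeR adjusted p = 0.0307).

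Cluster-9033.84923 gave the same picture. It stood at 2289.7, 2183 and 1908 CPM in control and at 2140.2, 2122 and 1924 CPM in cadmium libraries, and the groups overlapped. Its log2 fold change was −0.04 ± 0.09 (SE, edgeR adjusted p = 0.749), and −0.39 ± 0.09 on the whole-library scale, where it was lower (edgeR adjusted p = 0.0154). Counts summed over all 5 RAP2-3 clusters had a log2 fold change of 0.01 ± 0.08 (SE, edgeR adjusted p = 0.936) with TMM scaling. Set to the whole library, the log2 ratio of group means was −0.35, which was not tested.

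Among the minor RAP2-3 clusters, the spread within groups set the limit. Cluster-9033.86476 stood at 398, 165 and 464 CPM in control and at 379, 339 and 176 CPM in cadmium libraries, with control replicate 2 and cadmium replicate 3 low, and did not pass (log2 fold change −0.20 ± 0.45, edgeR adjusted p = 0.783). Cluster-9033.66342, a fragment of 222 bases, lay between 51.0 and 63.6 CPM in control and between 45.0 and 61.8 CPM in cadmium libraries and did not pass (edgeR adjusted p = 0.82). Cluster-9033.21291, the weakly named member, stood at 10.97, 10.5 and 11.3 CPM in control and at 44.9, 40.2 and 25.1 CPM in cadmium libraries. Its groups did not overlap, and its log2 fold change of 1.74 ± 0.42 (SE) passed (edgeR adjusted p = 0.0235). That call ended when any library other than cadmium replicate 3 was left out (edgeR adjusted p between 0.0647 and 0.0886). It also ended when counts were summed with the PTI6-named clusters that share its NR protein (log2 fold change 0.38 ± 0.19, edgeR adjusted p = 0.11).

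Of all 11 tested members, 7 had cadmium libraries above all control libraries in CPM, where 25.6% of all tested clusters did, and the number was 6 of 10 without Cluster-9033.21291. On the whole-library scale 4 members lay wholly higher, or 3 without Cluster-9033.21291, beside 18.2% of all tested clusters. There 3 RAP2-3 clusters, Cluster-9033.66342, Cluster-9033.84923 and Cluster-9033.99457, lay wholly lower, beside 37.2% of all tested clusters. A q-value below 0.05 was listed for 3 members in the authors' deposited table, all higher in cadmium, beside 8.95% of the 7697 clusters with a q-value there. These were Cluster-9033.82142, Cluster-9033.82600 and Cluster-9033.76306, with log2 ratios of 0.69, 0.59 and 0.55 in the authors' deposited table. The same 3 clusters passed here in edgeR and in all 16 other settings tried, of which the fits on sums give the value of the protein's sum.

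Ratios between clusters within one library do not depend on any scaling. The count of the RAP2-12 Cluster-9033.82142 over that of the RAP2-3 Cluster-9033.99457 was 1.21, 1.07 and 1.03 in control and 1.71, 1.63 and 2.21 in cadmium libraries. No cadmium library came down to the control range, a log2 difference of 0.74 (exact two-sided permutation test, p = 0.1, adjusted p = 0.15 over 3 ratios). The ERF073 Cluster-9033.82600 over the same RAP2-3 cluster was 1.94, 2.11 and 1.87 in control and 3.02, 2.84 and 3.41 in cadmium libraries, again without overlap (log2 difference 0.65, exact two-sided permutation test, p = 0.1, adjusted p = 0.15). For RAP2-12 over ERF073 the ratio was 0.561 ± 0.059 (SD, n = 3) in control and 0.596 ± 0.046 in cadmium libraries, with overlap (exact two-sided permutation test, p = 0.4). With 3 against 3 libraries p cannot go below 0.1, so none of these ratios could pass at 0.05. The ratios were chosen after seeing the data, and they set against each other clusters whose fold changes are given above.

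**Figure D3:**
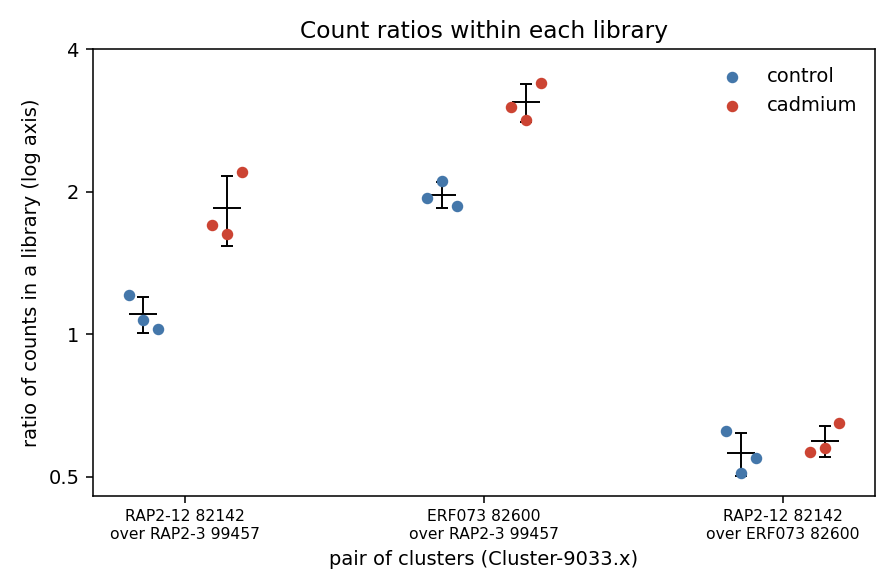
Ratio of counts between the most abundant clusters of 2 names in each library, on a log axis, with the mean and SD of 3 libraries per group. The ratios of RAP2-12 and ERF073 to RAP2-3 are higher in all cadmium libraries (1.63 to 2.21 and 2.84 to 3.41) than in all control libraries (1.03 to 1.21 and 1.87 to 2.11), and the ratio of RAP2-12 to ERF073 overlaps.

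Levels per length, in FPKM, put group VII members among the most abundant regulators of these roots. Cluster-9033.82142 ranked 13 of 8147 clusters by mean FPKM in control and 1 in cadmium libraries, at 601 ± 47.3 and 814 ± 73.2 FPKM (SD, n = 3). Cluster-9033.82600 ranked 17 and 4, at 467 ± 12.6 and 589 ± 6.36 FPKM. Cluster-9033.99457 ranked 24 and 20 although its FPKM was lower in cadmium, at 325 ± 12.7 and 263 ± 23.9 FPKM. The fragment Cluster-9033.66342 followed at 259 ± 18.4 and 221 ± 31.4 FPKM, from 52.27 to 86.67 counts per library. The deposited FPKM follows a cluster length shortened by a constant per library, which raises the shortest clusters most. This 222-base fragment took 0.99% ± 0.08 of the RAP2-3 counts in control and 0.93% ± 0.08 in cadmium libraries (SD, n = 3). Its place in this order rests on that shortening. Cluster-9033.113618 came next at 182 ± 16.6 and 188 ± 7.54 FPKM, and Cluster-9033.84923 and Cluster-9033.76306 lay between 50.4 and 90.2 FPKM. The last 4 tested members stayed below 20 FPKM in every library. The shortened length also raises Cluster-9033.82142, at 605 bases the next shortest member, more than the 1093-base Cluster-9033.82600. In counts-per-million of the whole library, not set to length, Cluster-9033.82142 stood at 226 in control and 301 in cadmium libraries. Cluster-9033.82600 stood at 404 and 506 there. Ranks on full lengths were not computed.

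The order of these levels was clearer in control than in cadmium libraries. In both groups the libraries of Cluster-9033.82142, Cluster-9033.82600 and the third cluster in order, Cluster-9033.99457, did not overlap in the deposited FPKM. The gap between the first 2 depends in part on the shortened length, which raises the 605-base Cluster-9033.82142 more than the 1093-base Cluster-9033.82600. It was not examined on full lengths. In cadmium libraries Cluster-9033.99457 overlapped with Cluster-9033.66342, Cluster-9033.66342 with Cluster-9033.113618, and Cluster-9033.76306 with Cluster-9033.84923. Cluster-9033.21291 and Cluster-9033.65752, the lowest tested members, also overlapped there. In control libraries only Cluster-9033.113615 and Cluster-9033.86476 overlapped among the tested members.

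Summed per name, the levels changed places. In control libraries RAP2-12 stood at 798 ± 63.6, RAP2-3 at 682 ± 33.7 and ERF073 at 522 ± 15.3 FPKM (SD, n = 3). In cadmium libraries RAP2-12 stood at 1019 ± 67.5, ERF073 at 656 ± 9.26 and RAP2-3 at 559 ± 47.2 FPKM. Neighbours in either order did not overlap between their libraries. Without the 222-base fragment, RAP2-3 summed to 423 ± 16.4 FPKM in control and 338 ± 30.3 FPKM in cadmium libraries. These sums lay below those of ERF073, so the exchange of places rests on that fragment, whose FPKM is raised by its short length. The RAP2-12 sums include the 605-base Cluster-9033.82142, whose FPKM is also raised by its length, so their lead over ERF073 depends in part on that.

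**Figure D4:**
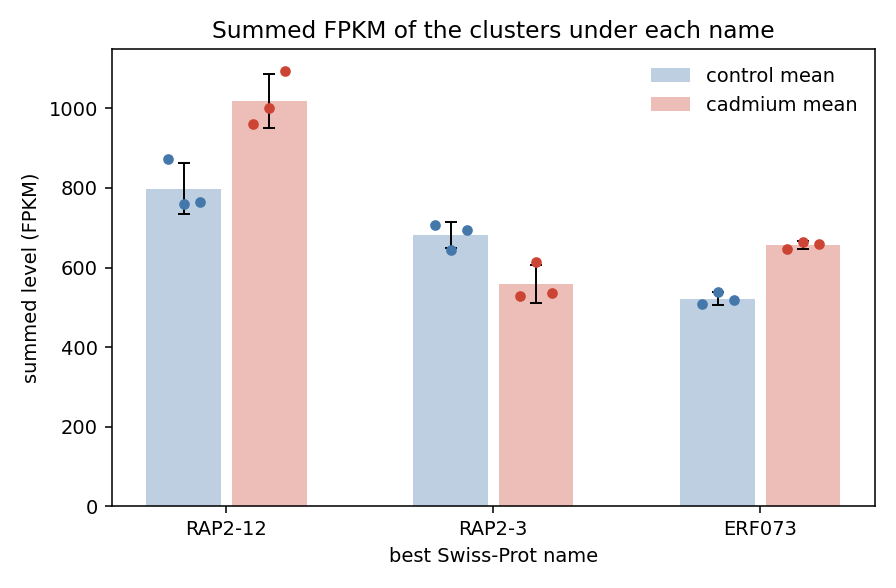
Summed FPKM of all clusters under each name, with bars at the mean, error bars of 1 SD and a point per library (n = 3 per group). RAP2-12 and ERF073 sums are higher in all cadmium libraries than in all control libraries, and RAP2-3 sums are lower in all of them on this whole-library scale. The RAP2-3 sums include the 222-base Cluster-9033.66342, whose FPKM is raised by its short length. To a lesser degree this holds for the 605-base Cluster-9033.82142 in the RAP2-12 sums.

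Together the 12 clusters took 2.04%, 1.95% and 1.94% of all regulator counts in control libraries and 2.64%, 2.67% and 2.50% in cadmium libraries. Their summed level was 19505 ± 573 CPM in control and 27085 ± 445 CPM in cadmium libraries (SD, n = 3), a log2 ratio of 0.47 with or without Cluster-9033.21291. Set to the whole library, in counts-per-million, the sum was 1283 ± 43.5 and 1399 ± 28.7, a log2 ratio of 0.13, or 0.12 without that cluster. Cadmium libraries lay above control libraries on both scales, and the sum was not tested because the members were chosen with results known.

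The regulators whose pattern over the 6 libraries was most like that of the 3 most abundant members were found by the root mean square difference of centred log2 CPM, among 4833 other tested clusters. For the ERF073 Cluster-9033.82600 these were a cluster named Spastin (difference 0.034 log2 units), which rose from 653 to 715 CPM in control to 1044 to 1121 CPM in cadmium libraries, and one named WRKY32 (0.038). For the RAP2-12 Cluster-9033.82142 they were a shaggy-related protein kinase theta (0.051) and TCP23 (0.064). For Cluster-9033.113618 they were ERF018 (0.051) and the TFIID subunit TAF12 (0.052).

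Other regulators tied to the low-oxygen response moved in both directions. Of 15 names listed, 8 were matched by 60 clusters. By Swiss-Prot description, HRA1, MED25, VRN2, NAC13, NAC102, ZAT12 and the plant RCD1 were matched by 0 clusters. Of 50 tested clusters 19 were higher and 14 lower, beside 15.8% higher and 14.6% lower among all tested clusters, and the median log2 fold change was 0.54 against −0.08. LBD41 made up 12 of the 19 higher clusters. Without LBD41, 7 of 30 were higher and 14 lower, with a median of −0.39. On the whole-library scale 13 of the 50 were higher and 17 lower, beside 10.9% and 22.9%, with a median of 0.19 against −0.42. There 3 of 30 were higher and 17 lower without LBD41, with a median of −0.74.

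LBD41, a target gene of the group VII factors in Arabidopsis, was higher in 12 of 20 tested clusters, and in 10 on the whole-library scale. The median log2 fold change of the 20 was 2.53, and 2.18 on the whole-library scale. Summed over all 23 LBD41 clusters, the level was 75.0 to 91.9 FPKM in control and 654 to 742 FPKM in cadmium libraries. The cluster named next lies well above that median. Cluster-9033.10288 stood at 68.8, 46.1 and 84.8 CPM in control and at 3355, 3363 and 2914 CPM in cadmium libraries, with a log2 fold change of 5.59 ± 0.24 (SE, edgeR adjusted p = 6.37e-05). The largest log2 fold change of a group VII member was 1.74, in the weakly named Cluster-9033.21291, and the next was 0.76, in Cluster-9033.82142.

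Regulators of ethylene and submergence signalling were divided. EIN3, the ethylene-signal activator, was higher in all 3 tested clusters, and in 2 on the whole-library scale. Cluster-9033.48945 stood at 481, 521 and 388 CPM in control and at 962, 870 and 1046 CPM in cadmium libraries (log2 fold change 1.05 ± 0.13, edgeR adjusted p = 0.00233). Its relative EIL1 was higher in 3 and lower in 1 of 9 clusters, or 1 and 2 on the whole-library scale. WRKY33, which with WRKY12 switches on RAP2-2 in submerged Arabidopsis, was lower in 9 of 10 clusters. Cluster-9033.83742 fell from 622 ± 58.9 to 162 ± 9.80 CPM (SD, n = 3, log2 fold change −1.94, edgeR adjusted p = 0.000142). The single tested WRKY12 cluster was lower on the whole-library scale and did not pass with TMM scaling.

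Stress regulators with a known response to low oxygen or to mitochondrial signals included more clusters lower than higher. NAC17, which carries mitochondrial signals to the nucleus, was higher in 1 and lower in 3 of 5 clusters. Cluster-9033.67427 fell from 216 ± 27.96 to 85.8 ± 18.3 CPM and Cluster-9033.42686 rose from 446 ± 37.5 to 674 ± 42.7 CPM (SD, n = 3). The rise did not pass on the whole-library scale (edgeR adjusted p = 0.124). ZAT10, a zinc-finger repressor induced by many stresses, fell from 335 ± 13.6 to 167 ± 5.73 CPM in its tested cluster (SD, n = 3, log2 fold change −1.01, edgeR adjusted p = 0.00102). The tested cluster of the heat stress factor HSFA2 did not pass, with a log2 fold change of −0.25.

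**Figure D5:**
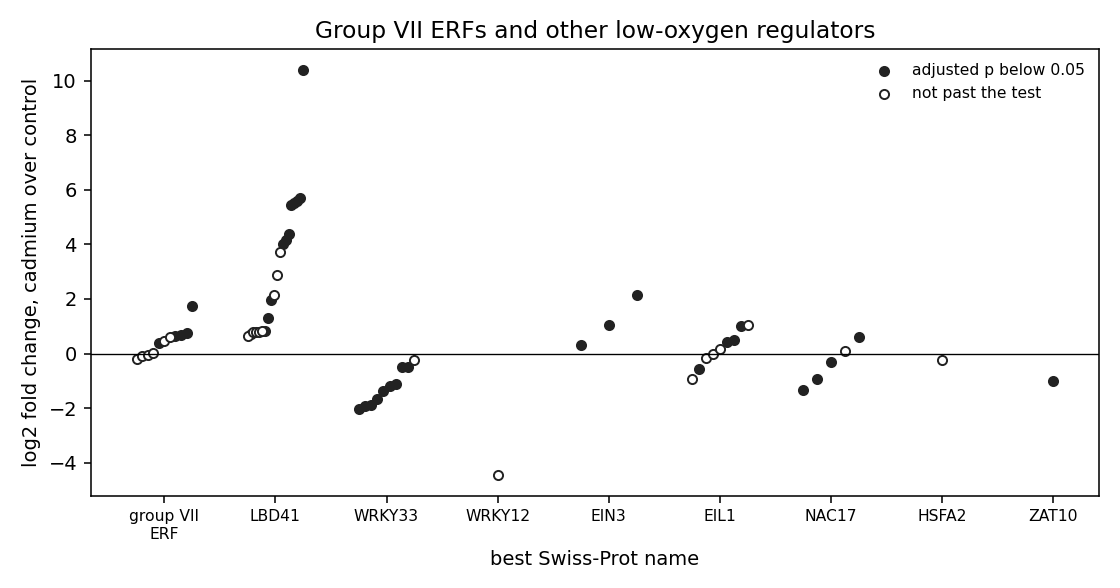
Log2 fold change of cadmium over control (TMM scaling) for each tested cluster of the group VII ERFs and of other low-oxygen regulators, filled where the adjusted p is below 0.05. Group VII values reach 1.74, LBD41 clusters include 12 past the test upward, and WRKY33 clusters include 9 past it downward. The highest LBD41 point belongs to a cluster with a count of 0 in 2 control libraries and under 1 in the other, so its fitted size depends on the prior count.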

How the data were processed

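Roots of Verbena bonariensis were profiled by RNA sequencing in 3 control and 3 cadmium libraries, from Trizol RNA and Illumina TruSeq libraries per the labels' protocols. Bowtie2 2.0.6 and TopHat2 2.0.12 appear in the submitters' processing notes, with no role, and a counting tool was not given in the sources used here. Expected counts per cluster were deposited unscaled, per the file headers. The FPKM, log2 ratio and q-value columns are the authors' own, per the file headers. The deposited table also holds alignment scores of the best database hits. The counting may divide or misplace reads among near-identical clusters.

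The deposited counts were rounded to whole numbers. Whole-library totals (18627761 to 23340460 fragments) were recovered from count, FPKM and length over clusters above 300 counts and 10 FPKM. Cadmium was compared with control in edgeR 4.0.16 (R 4.3.3) over the whole table: filterByExpr (minimum count 10, minimum total 15), TMM, a quasi-likelihood fit with group only, and Benjamini-Hochberg adjustment over all tested clusters. SE is the size of the log2 fold change over the square root of F. P-values measure the spread between these libraries, and count floors cover counting error only. Other settings were RLE factors, whole-library totals, other filters, DESeq2 1.42.0, limma-trend (limma 3.58.1) on log2(FPKM + 1) and log2(FPKM + 0.1), the replicate block, single libraries left out, and sums per Swiss-Prot or NR protein.

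The members and lists were chosen with earlier results of these data known. By rule, values per library are given for up to 3 clusters of each name with the highest mean CPM and for members past the test. Values are also given for up to 2 clusters higher and 2 lower per listed low-oxygen name, and for the 2 clusters most like each of the 3 members with the highest CPM (prior count 2). The sums without Cluster-9033.21291 or Cluster-9033.66342, the FPKM sum and the ratios between clusters were chosen after seeing the data. Proteins named RCD1 after an animal cell differentiation protein were not counted as the plant RCD1.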

Additional observations from a re-analysis of the deposited data

How the results depend on the processing

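The ERF073 clusters Cluster-9033.82600 and Cluster-9033.76306 and the RAP2-12 Cluster-9033.82142 passed upward in all 17 settings, with log2 fold changes of 0.33 to 0.71, 0.28 to 0.68 and 0.42 to 0.84. Over the 11 tested members and 16 alternatives, 140 values kept direction and call, 14 lost a call, 12 gained one and 13 changed sign. The sign changes were all in RAP2-3 clusters, and 3 of them are also among the gained calls. The count of higher members, 5 of 11, became 2 of 3 proteins with Swiss-Prot sums and 2 of 5 with NR sums. Beside these, 430 of all 1502 Swiss-Prot sums and 630 of all 2070 NR sums were higher. With single libraries left out it was 3 to 5 of 11, beside 595 to 672 higher among 5234 to 5344 tested clusters. The count of lower members, 0, became 2 with whole-library totals, with limma-trend on log2(FPKM + 1) and with limma-trend on log2(FPKM + 0.1). Among all 4844 tested clusters, 1108, 1442 and 1379 were lower in these fits. The summed level, a log2 ratio of 0.47, became 0.13 with whole-library totals and 0.16 as a sum of FPKM.

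Over all regulators, 767 clusters higher and 709 lower became 430 and 420 with Swiss-Prot sums and 499 and 387 with the replicate block. Lower clusters numbered 1108 with whole-library totals, 1442 with log2(FPKM + 1) and 1379 with log2(FPKM + 0.1). Deviations of same-numbered libraries correlated by −0.0038 to 0.029, and 2 of 3 control libraries correlated best with the cadmium library of their own number. Correlations this small cannot decide whether the replicate numbers pair the libraries. Under the replicate block 4 of 11 members were higher, beside 499 of 4844 tested clusters, and Cluster-9033.21291 did not pass (edgeR adjusted p = 0.101).

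The RAP2-3 Cluster-9033.99457 (0.03) went to −0.32 with whole-library totals, −0.31 with either limma-trend fit, and −0.0065 with NR sums. With Swiss-Prot sums, RAP2-3 had a single value of 0.0085, against −0.04 for Cluster-9033.84923, −0.20 for Cluster-9033.86476 and −0.10 for Cluster-9033.66342. With single libraries left out these ranged from −0.12 to 0.026, from −0.53 to 0.079 and from −0.20 to 0.012. The cause of these shifts was not tested. Members with few counts, such as Cluster-9033.21291 and Cluster-9033.65752, limit what this depth can show.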
